A study of Homo sapiens with 8 samples.

Results

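The genes described here are the Wnt ligands, their Frizzled receptors and co-receptors, the secreted antagonists of the SFRP and DKK families, and the core of the beta-catenin pathway, measured by RNA-seq in LX-2 cells after O-GlcNAc transferase (OGT) was inhibited and in vehicle-treated controls. Members were chosen by gene symbol: WNT, FZD, SFRP or DKK followed by a number, together with 16 named receptors and intracellular components, with a total of 10 or more counts over the 8 libraries. This gave 37 members among 14895 genes with 10 or more counts, out of 16796 genes listed. LX-2 is an established human hepatic stellate cell line with a myofibroblast character, and all libraries came from this 1 line, cultured in medium with 5% fetal bovine serum. The control group was 4 cultures given the vehicle DMSO, and the OGTi group was 4 cultures kept for 24 h in 50 µM OSMI-1, a small-molecule OGT inhibitor. OGT adds the sugar O-GlcNAc to nuclear and cytoplasmic proteins, and the comparison asks which transcripts moved when it was inhibited.

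Wnt ligands are secreted lipid-modified proteins that bind Frizzled receptors. With the co-receptors LRP5 or LRP6 they stop a destruction complex, built on AXIN and APC, from degrading beta-catenin (CTNNB1), which then joins TCF/LEF proteins on DNA. With ROR1, ROR2 or RYK they instead signal without beta-catenin, through cell polarity and calcium pathways, and WNT5A is the best known ligand of this kind. SFRP proteins bind the ligands outside the cell, DKK1 blocks LRP5 and LRP6, and the ubiquitin ligases RNF43 and ZNRF3 remove Frizzled receptors from the surface. In the liver, Wnt signalling has been studied in hepatocyte zonation and in the activation of stellate cells.

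Library totals ran from 24166756 to 28201215 counts. OGT, the enzyme inhibited, fell from 5636 ± 260 to 4146 ± 477 normalized counts (SD, n = 4 in each group, log2 fold change -0.45, DESeq2 q = 1.48e-06), and OGA, which takes the sugar off again, fell from 3159 ± 423 to 904 ± 85.3 (log2 fold change -1.80, DESeq2 q = 1.69e-92). An inhibitor acts on the protein, so these transcript levels do not check the labels. Of 14 stellate and myofibroblast markers, 9 had a mean of 50 or more normalized counts, COL1A1, VIM and TAGLN among them, while DES, LRAT and LUM were near 0 and HAND2 and DCN were under 10 counts in all. The summed level of these markers was 210426 to 249438 in control and 159927 to 193608 in OGTi libraries, a sum made up mostly of COL1A1 and VIM. Of these markers 6 were called lower and 2 higher, NGFR (from a mean of 104 to 1638) and TIMP1 (12613 to 17868). The endothelial list summed to 73.1 to 98.6 and 19.0 to 45.7 normalized counts, and the hepatocyte list to 47.1 to 104 and 183 to 297, the latter mainly CYP2E1. The leukocyte list summed to 2507 to 4098 and 5633 to 9406, mainly CD68, which rose from a mean of 3236 to 7687. The other tested leukocyte markers were CD14 (61.8 to 68.1), LYZ (13.3 to 18.6), PTPRC (7.64 to 2.84) and CSF1R (6.88 to 4.42). The epithelial list summed to 681 to 1151 and 954 to 1273, with KRT7 lower, SOX9 higher, and KRT19 and CDH1 under 10 counts. The part of these shifts in the values below was not tested, and in bulk RNA fewer cells of a type and less RNA per cell cannot be told apart.

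The RefSeq table of promoter windows (GRCh38.p14) matched 25 of the 37 members, some with several annotated starts, giving 33 windows of 250 bases upstream of the start. They were searched on both strands for the core letters bound by TCF/LEF proteins (CTTTGAA or CTTTGAT) and by TEAD proteins (GGAATG), which do not overlap each other. TCF/LEF letters stood in 1 of the 33 windows (3.03%), against 4.01% of 16753 windows of all genes tested, and TEAD letters in 3 (9.09%), against 10.1%. Neither share is above that of other genes. The single member with both was DKK1, with CTTTGAA at position -95 and GGAATG at position -50 from the start. The sequences shown are those of DKK1, for these letters, and of WNT5A, WNT9A and FZD8, the ligands and receptor with the largest changes described below, 5′ to 3′ on the gene's own strand with the searched letters in capitals.
DKK1 (chr10:52314031-52314280, plus strand): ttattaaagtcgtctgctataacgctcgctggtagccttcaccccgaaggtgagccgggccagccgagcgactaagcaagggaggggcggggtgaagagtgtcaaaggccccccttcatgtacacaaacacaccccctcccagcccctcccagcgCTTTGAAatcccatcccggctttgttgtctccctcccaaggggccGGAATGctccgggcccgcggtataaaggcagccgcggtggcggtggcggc
WNT5A, one start (chr3:55481399-55481648, minus strand): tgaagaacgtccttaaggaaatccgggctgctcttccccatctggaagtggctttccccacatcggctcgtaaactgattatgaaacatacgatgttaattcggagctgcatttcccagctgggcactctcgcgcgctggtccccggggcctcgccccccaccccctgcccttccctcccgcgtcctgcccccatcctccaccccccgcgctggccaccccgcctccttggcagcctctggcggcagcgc
WNT5A, other start (chr3:55487307-55487556, minus strand): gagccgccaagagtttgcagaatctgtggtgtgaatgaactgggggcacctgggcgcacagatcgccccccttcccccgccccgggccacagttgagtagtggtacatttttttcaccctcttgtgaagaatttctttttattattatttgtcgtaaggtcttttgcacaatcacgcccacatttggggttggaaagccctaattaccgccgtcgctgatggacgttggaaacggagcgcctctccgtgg
WNT9A (chr1:227947933-227948182, minus strand): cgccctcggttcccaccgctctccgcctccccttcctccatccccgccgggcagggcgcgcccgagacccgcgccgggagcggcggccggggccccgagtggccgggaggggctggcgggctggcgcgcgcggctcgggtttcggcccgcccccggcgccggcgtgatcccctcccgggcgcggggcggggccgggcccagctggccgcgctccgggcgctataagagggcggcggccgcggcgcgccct
FZD8 (chr10:35642297-35642546, minus strand): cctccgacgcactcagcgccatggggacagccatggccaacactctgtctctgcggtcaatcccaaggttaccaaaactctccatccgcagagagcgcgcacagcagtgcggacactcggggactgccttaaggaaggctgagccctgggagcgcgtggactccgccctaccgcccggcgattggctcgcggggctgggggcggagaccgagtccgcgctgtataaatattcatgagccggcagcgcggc
None of the last 4 windows holds either set of letters, which says only that these letters are absent there. The starts are annotated ones, and which start LX-2 cells use was not measured. The median GC content of the members' windows was 68.8%, against 64% over the genes tested.

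After OGT inhibition, 13 members were lower and 6 were higher by the DESeq2 test paired by replicate number, at a q (the Benjamini-Hochberg adjusted p over all genes) of 0.05 or lower. That is 51.4% of the 37 members. OGT inhibition moved much of the transcriptome, and 43.9% of all genes tested were called, 22.6% lower and 21.4% higher. Among the 28 members with a mean of 50 or more normalized counts 18 (64.3%) were called, against 52.3% of all genes at that level. The share called was thus somewhat above that of other genes, a difference that was not tested. The values below describe which members moved and by how much. The median log2 fold change was -0.13 over the members and 0.00 over all genes, and the median size of the change, regardless of sign, was 0.48 and 0.33. In 18 of the 37 members the 4 OGTi libraries lay all above or all below the 4 control libraries, against 38.0% of all genes, and all 18 were called; SFRP1 was the called member that overlapped. In 7 called members the change was 2-fold or more: WNT5A, DKK1, TCF7L1, TCF7 and LEF1 fell, and WNT9A and FZD8 rose. The plot of counts by library shows the 28 members with a mean of 50 or more.

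**Figure D1:**
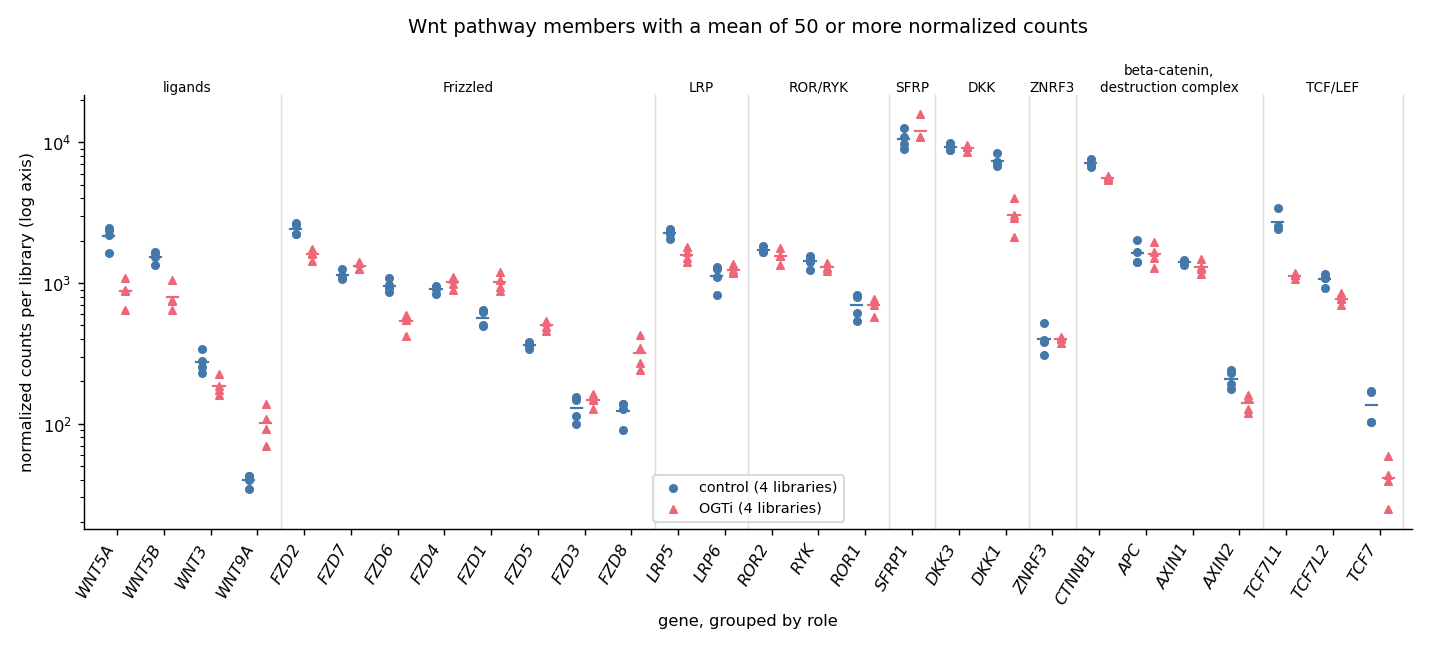
Normalized counts (log axis) of the 28 members with a mean of 50 or more, by gene and grouped by role, with 1 point per library (4 control, circles; 4 OGTi, triangles) and short lines at the group means. WNT5A, WNT5B, FZD6, DKK1, TCF7L1 and TCF7 separate downward and WNT9A, FZD1 and FZD8 upward, while DKK3, APC and ROR1 overlap.

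Ligands were of low variety. Of 16 WNT genes listed, 10 reached 10 counts, and of these WNT5A, WNT5B, WNT3 and WNT9A had a mean of 50 or more and were called. WNT5A (chr3:55465715-55490539, GRCh38, minus strand) had 1639, 2199, 2460 and 2371 normalized counts in control replicates 1 to 4 and 643, 891, 884 and 1087 in OGTi replicates 1 to 4. Every OGTi library was below every control library. WNT5A fell 2.48-fold (log2 fold change -1.31 ± 0.09 SE, DESeq2 q = 5.63e-46).

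WNT5B, the closest relative of WNT5A, lies on another chromosome (chr12:1529891-1647212, plus strand) and was the ligand with the highest level per length. Control libraries held 1341, 1651, 1520 and 1627 normalized counts and OGTi libraries 751, 1052, 758 and 643, with no overlap. The fall was 1.94-fold (log2 fold change -0.96 ± 0.11, DESeq2 q = 3.39e-16). WNT3, a ligand of the beta-catenin branch, had 251, 342, 229 and 281 normalized counts in control and 175, 224, 161 and 184 in OGTi libraries. Here too the groups did not overlap, but by a narrow margin, from 229 to 224, and the fall was smaller (log2 fold change -0.56 ± 0.16, DESeq2 q = 0.00118).

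WNT9A, another ligand able to signal through beta-catenin, moved the other way. It had 39.9, 42.3, 34.5 and 42.6 normalized counts in control and 138, 107, 69.2 and 92.2 in OGTi libraries. All OGTi libraries were above the controls, a 2.50-fold rise (log2 fold change 1.32 ± 0.29, DESeq2 q = 2.14e-05) from a low level. The other 6 ligands were near the detection limit, with group means between 2.60 (WNT9B, control) and 20.9 (WNT7B, control) normalized counts: WNT2B, WNT4, WNT7B, WNT10B and WNT11 were not called, and WNT9B had too few counts for a q. Their standard errors were 0.49 to 1.38 on the log2 scale, so that only large changes could have passed the test at this depth.

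To set ligands beside each other, levels were expressed as counts per kilobase of exon per 1000000 counts of the library. On this scale the 10 ligands together summed to 27.3 ± 2.83 in control and 15.0 ± 1.89 in OGTi libraries (SD, n = 4). WNT5B made up 49.1% ± 2.02 of the ligand total in control and 49.4% ± 5.72 in OGTi, and WNT5A 40.8% ± 3.28 and 32.4% ± 7.04. The ratio of WNT5A to WNT5B overlapped between the groups, at 0.72 to 0.96 in control and 0.50 to 1.0 in OGTi. WNT9A went from 1.36% ± 0.21 to 6.76% ± 2.26 of the ligand total, below WNT3 in every library except OGTi replicate 1. With the longest transcript as the length of each gene, WNT9A was below WNT3 in that library too, going from 0.87% ± 0.12 to 4.34% ± 1.44, and the ratio of WNT5A to WNT5B was 0.45 to 0.60 in control and 0.31 to 0.63 in OGTi libraries.

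Frizzled receptors moved in both directions. Of the 8 members, FZD2 and FZD6 fell, FZD1, FZD5, FZD7 and FZD8 rose, and FZD3 and FZD4 were not called. FZD2 (chr17:44557484-44561262, plus strand), the receptor with the highest level per length in control, had 2595, 2667, 2245 and 2238 normalized counts in control and 1610, 1740, 1645 and 1433 in OGTi libraries. The groups were apart and the fall was 1.52-fold (log2 fold change -0.60 ± 0.08, DESeq2 q = 1.46e-12). FZD6, a receptor best known from cell polarity signalling, had 871, 972, 1083 and 915 in control and 421, 545, 583 and 597 in OGTi libraries. It fell 1.80-fold, again with no overlap (log2 fold change -0.85 ± 0.11, DESeq2 q = 1.24e-13).

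FZD8 (chr10:35638247-35642296, minus strand), a single-exon gene in the annotation like FZD1, FZD2 and FZD7, was the receptor with the largest change. Its normalized counts were 127, 139, 90.8 and 138 in control and 427, 345, 239 and 272 in OGTi libraries. Every OGTi library exceeded every control library, and the rise was 2.57-fold (log2 fold change 1.36 ± 0.18, DESeq2 q = 5.39e-13). FZD1 (chr7:91264433-91271326, plus strand) followed with 504, 627, 494 and 640 in control and 1195, 1057, 875 and 940 in OGTi libraries. It rose 1.80-fold without overlap (log2 fold change 0.84 ± 0.12, DESeq2 q = 3.18e-11). FZD5 rose less, from 338 to 383 normalized counts over the control libraries to 459 to 537 over the OGTi libraries (log2 fold change 0.48 ± 0.13, DESeq2 q = 0.000662). FZD7 rose least, from a control range of 1076 to 1257 to an OGTi range of 1259 to 1408, where the highest control and lowest OGTi library nearly touched (log2 fold change 0.22 ± 0.09, DESeq2 q = 0.0292), and it was not called when any 1 replicate pair was left out (q = 0.0579 to 0.187). FZD4 (log2 fold change 0.15 ± 0.11, DESeq2 q = 0.243) and FZD3 (0.20 ± 0.21, DESeq2 q = 0.459) overlapped between the groups.

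The set of 8 receptors changed in make-up more than in amount. Their summed level per kilobase was 52.8 ± 3.66 in control (49.8 to 57.6) and 50.9 ± 2.25 in OGTi libraries (48.6 to 53.4), which overlap. With size factors in place of total counts the OGTi sum was 0.91 times the control sum and the ranges did not overlap, so whether the sums overlapped depended on the scaling, while the shares do not depend on it. FZD2 went from 45.1% ± 2.67 to 32.8% ± 1.4 of the Frizzled total and FZD6 from 16.6% ± 1.79 to 10.3% ± 1.85. FZD1 went from 5.76% ± 0.78 to 11.4% ± 1.3, FZD8 from 2.14% ± 0.37 to 6.10% ± 1.41, FZD7 from 17.5% ± 0.38 to 22.5% ± 1.35 and FZD5 from 3.61% ± 0.29 to 5.53% ± 0.29. For these 6 receptors the shares of the control and OGTi libraries did not overlap. FZD4, which was not called, took 8.03% to 9.35% of the total in control and 9.55% to 11.3% in OGTi libraries, also without overlap. FZD3 took under 1% in each library. A share can rise because that of another receptor falls.

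FZD2 remained first in both groups, but its lead narrowed. The ratio of FZD2 to FZD1 was 6.38 to 9.40 in control and 2.46 to 3.43 in OGTi libraries, and that of FZD2 to FZD7 went from 2.43 to 2.81 down to 1.38 to 1.54. FZD8 stood at 0.08 to 0.15 of the FZD6 level in control and at 0.41 to 1.02 in OGTi libraries. In control the order was FZD2, FZD7, FZD6, FZD4, FZD1, FZD5, FZD8 and FZD3. FZD6 and FZD7 did not differ beyond their spread (8.73 ± 0.71 and 9.23 ± 0.80), and their order swapped when the longest transcript was used as the gene length. In OGTi libraries FZD1 (5.81 ± 0.82), FZD4 (5.40 ± 0.51) and FZD6 (5.2 ± 0.77) were within each other's spread, as were FZD8 (3.12 ± 0.82) and FZD5 (2.82 ± 0.21).

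**Figure D2:**
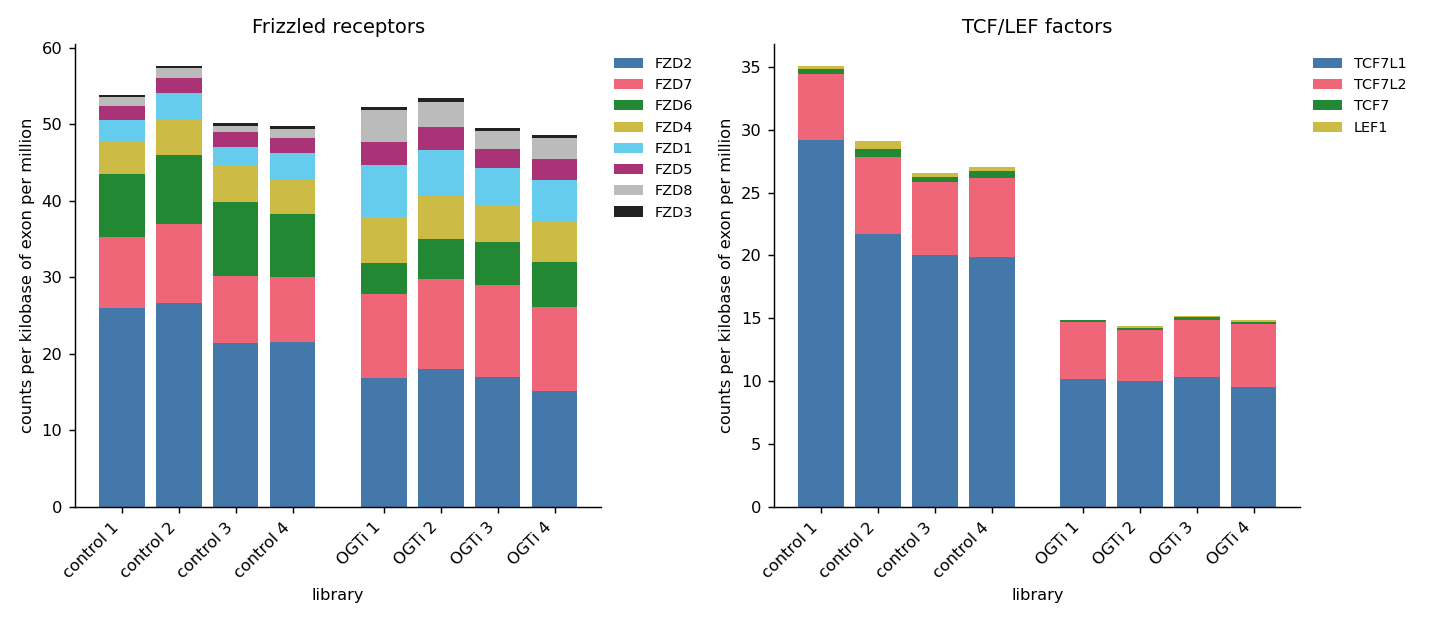
Level per library of the 8 Frizzled receptors (left) and the 4 TCF/LEF factors (right), as stacked levels per length (counts per kilobase of exon per 1000000), for control and OGTi replicates 1 to 4. The Frizzled bars keep a similar height (48.6 to 57.6) with less FZD2 and FZD6 and more FZD1 and FZD8 in OGTi, while the TCF/LEF bars go from 26.5 to 35.1 in control to 14.4 to 15.2 in OGTi.

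The co-receptors LRP5 and LRP6 were both well detected. LRP5 (chr11:68312591-68449275, plus strand) had 2226, 2423, 2059 and 2365 normalized counts in control and 1417, 1803, 1650 and 1499 in OGTi libraries. It fell 1.43-fold without overlap (log2 fold change -0.51 ± 0.09, DESeq2 q = 4.19e-08). LRP6 ranged from 819 to 1303 in control and from 1177 to 1367 in OGTi libraries and was not called (log2 fold change 0.17 ± 0.11, DESeq2 q = 0.195). LRP5 was the higher of the pair per length in every library, at 2.75 to 4.56 times LRP6 in control and 1.84 to 2.57 times in OGTi.

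None of the alternative receptors ROR1, ROR2 and RYK was called. ROR2, the highest of the 3 per length, had 1828, 1664, 1653 and 1713 normalized counts in control and 1790, 1559, 1569 and 1355 in OGTi libraries (log2 fold change -0.13 ± 0.09, DESeq2 q = 0.21). The groups overlapped, although the OGTi library was the lower in 4 of 4 pairs. RYK gave a similar value (log2 fold change -0.14 ± 0.09, DESeq2 q = 0.183), and ROR1 a value near 0 (0.01 ± 0.12, DESeq2 q = 0.956). Thus the level of WNT5A fell while changes in ROR1, ROR2 and RYK did not pass the test. Frizzled receptors, which also bind Wnt ligands, moved in both directions as given above.

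The secreted antagonists DKK1 and SFRP1 had the highest levels per length of all members in both groups. SFRP1, which binds Wnt ligands, had 12752, 10926, 9801 and 8984 normalized counts in control and 15848, 10925, 10932 and 10841 in OGTi libraries. The groups overlapped and 3 of 4 pairs were higher in OGTi. SFRP1 was called higher in the paired test with a small change (log2 fold change 0.19 ± 0.07, DESeq2 q = 0.0246), and was not called without the pairing (q = 0.268) or without replicate 1, 3 or 4 (q = 0.128, 0.0793 and 0.177).

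DKK1 (chr10:52314281-52318042, plus strand), the LRP5 and LRP6 blocker whose upstream sequence is shown above, was the member with the highest level per length in control. It had 6814, 8355, 7270 and 7280 normalized counts in control and 2143, 4020, 3039 and 2922 in OGTi libraries. The highest OGTi library was far below the lowest control, and the fall was 2.50-fold (log2 fold change -1.32 ± 0.09, DESeq2 q = 1.94e-45). DKK3, a divergent member of the family not known as an LRP blocker, did not pass the test, with 8804 to 9913 normalized counts in control and 8594 to 9557 in OGTi libraries (log2 fold change -0.02 ± 0.07, DESeq2 q = 0.874). On the per-length scale DKK1 was at 124 ± 12.2 in control and 53.7 ± 13.3 in OGTi libraries, DKK3 at 28.7 ± 1.03 and 30.3 ± 1.25, and SFRP1 at 83.2 ± 14.7 and 101 ± 21.0. DKK1 was above SFRP1 in each control library and below it in each OGTi library, with a ratio of SFRP1 to DKK1 of 0.58 to 0.88 in control and 1.28 to 3.47 in OGTi. The order of these 2 genes per length thus swapped between the groups, also with the longest transcript as length (0.50 to 0.76 and 1.10 to 2.99).

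The ubiquitin ligase ZNRF3 did not pass the test, with 310, 383, 392 and 522 normalized counts in control and 377, 405, 416 and 398 in OGTi libraries, which overlap (log2 fold change 0.01 ± 0.14, DESeq2 q = 0.955). RNF43, its close relative, had 22 counts over all 8 libraries and no q. NKD2, an inhibitor of the Wnt transducer dishevelled, had 2.92, 2.82, 0 and 0 normalized counts in control and 6.40, 5.02, 4.81 and 1.0 in OGTi libraries, also too few for a q.

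Of beta-catenin and its destruction complex, CTNNB1 and AXIN2 fell and AXIN1 and APC were not called. CTNNB1 (chr3:41194741-41260096, plus strand), which encodes beta-catenin, had 6644, 6927, 7642 and 7139 normalized counts in control and 5401, 5692, 5738 and 5564 in OGTi libraries. The groups were apart, and the change was modest (log2 fold change -0.34 ± 0.07, a 1.26-fold fall, DESeq2 q = 1.74e-06). AXIN2, the scaffold gene widely used as a readout of beta-catenin activity, had 175, 191, 229 and 241 in control and 159, 127, 153 and 119 in OGTi libraries. It fell 1.5-fold (log2 fold change -0.58 ± 0.20, DESeq2 q = 0.0086), and was not called without replicate 2 (q = 0.0531) or replicate 4 (q = 0.152). AXIN1 (log2 fold change -0.13 ± 0.09, DESeq2 q = 0.239) and APC (-0.03 ± 0.12, DESeq2 q = 0.875) overlapped between the groups. The amount of beta-catenin protein is set largely by its degradation and was not measured here.

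All 4 TCF/LEF factors, the DNA-binding partners of beta-catenin, fell. TCF7L1 (chr2:85133392-85310387, plus strand), known mainly as a repressor, was the most abundant per length and had 3411, 2546, 2467 and 2422 normalized counts in control and 1141, 1137, 1172 and 1062 in OGTi libraries. Control replicate 1 stood above the other 3 controls, and all 4 were over the OGTi libraries. The fall was 2.38-fold (log2 fold change -1.25 ± 0.10, DESeq2 q = 3.39e-37). TCF7 had 103, 169, 102 and 170 normalized counts in control and 24.7, 39.2, 58.6 and 43.1 in OGTi libraries. It fell 3.32-fold without overlap (log2 fold change -1.73 ± 0.29, DESeq2 q = 1.67e-08), on counts that RSEM, which shares out ambiguous reads by estimation, left fractional in all 8 libraries.

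LEF1 fell from 58.2 ± 26.7 to 16.4 ± 7.36 normalized counts (SD, n = 4, log2 fold change -1.83 ± 0.39, DESeq2 q = 1.65e-05). TCF7L2, the factor next to TCF7L1 in level, fell least, from 927 to 1166 over the control libraries to 699 to 846 over the OGTi libraries (log2 fold change -0.46 ± 0.10, DESeq2 q = 2.62e-05). Summed on the per-length scale, the 4 factors went from 29.4 ± 3.91 to 14.8 ± 0.34. TCF7L1 made up 76.6% ± 4.47 of the sum in control and 67.5% ± 2.26 in OGTi libraries, and TCF7L2 20.2% ± 3.68 and 30.6% ± 2.34. The ratio of TCF7L1 to TCF7L2 was 3.16 to 5.59 in control and 1.91 to 2.47 in OGTi. TCF7L1 stayed the first of the 4 in both groups, while TCF7 and LEF1 were each at most 2.36% of the sum in any library.

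**Figure D3:**
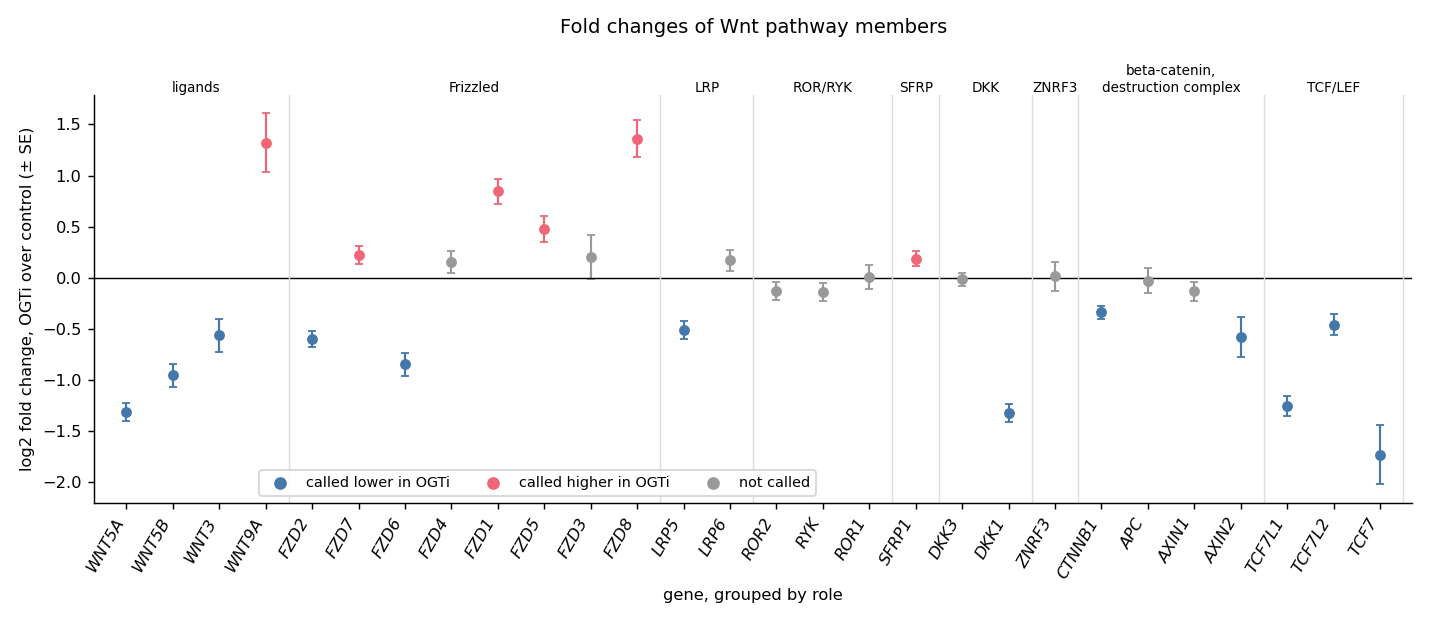
Log2 fold change, OGTi over control, of the 28 members with a mean of 50 or more normalized counts, with bars of 1 standard error from DESeq2, grouped by role. The 3 plotted TCF/LEF factors, LRP5, DKK1 and 3 of 4 ligands lie below 0, Frizzled receptors lie on both sides from -0.85 (FZD6) to 1.36 (FZD8), and the ROR/RYK receptors lie within 0.14 of 0.

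The 9 symbols that met the naming rule but not the count minimum were WNT1, WNT2, WNT3A, WNT6, WNT8A, WNT10A, FZD9, SFRP2 and DKK4. FZD9, just outside it, had 8 counts over the 8 libraries, and RNF43 and WNT9B, just inside it, had 22 and 23. The canonical ligands WNT1, WNT3A and WNT8A had 3, 6 and 1 counts.

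Other genes of Wnt signalling were counted in lists outside the members. Over 72 such genes tested, 35 genes were called, 22 of them lower and 13 higher, with a median log2 fold change of -0.09. Of all genes tested 43.9% were called, 22.6% lower and 21.4% higher. Among all genes with a mean of 50 or more normalized counts 52.3% were called, and 16 of the 72 were under that mean. Whether the 72 genes, or the single lists below, differ from these shares was not tested. Of 4 genes of ligand secretion and the R-spondin axis, 3 rose: WLS, the carrier of Wnt ligands to the cell surface (log2 fold change 0.51 ± 0.08, DESeq2 q = 1.22e-08), PORCN, which attaches their lipid (0.30 ± 0.09, DESeq2 q = 0.00351), and LGR6, an R-spondin receptor with 0.731 ± 1.46 normalized counts in control and 11.3 ± 6.33 in OGTi libraries (DESeq2 q = 0.00192). The rise of WLS and PORCN stood beside the fall of the 3 main ligands they serve. PORCN overlapped between the groups and was not called without the pairing (q = 0.0872).

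Of 8 other extracellular antagonists 2 fell and 1 rose. KREMEN1, the receptor through which DKK1 removes LRP6 from the surface, fell from 574 ± 49.0 to 141 ± 42.3 normalized counts (log2 fold change -2.06 ± 0.17, DESeq2 q = 6.34e-33). IGFBP4, which also binds Frizzled and LRP6, fell (-0.88 ± 0.07, DESeq2 q = 1.87e-34), and TPBG, a membrane inhibitor of beta-catenin signalling, rose (0.76 ± 0.10, DESeq2 q = 2.4e-14).

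Of 22 cytoplasmic transducers 5 fell and 3 rose, led by NKD1, a dishevelled inhibitor and relative of NKD2, which rose from 19.3 ± 5.18 to 107 ± 36.6 normalized counts (2.45 ± 0.33, DESeq2 q = 8.24e-13). CSNK1G3, a casein kinase, fell (-0.57 ± 0.10, DESeq2 q = 2.42e-07), and DVL2, a dishevelled, rose (0.34 ± 0.08, DESeq2 q = 5.34e-05). Of 12 nuclear cofactors 5 fell and 1 rose. TLE4, a co-repressor that binds TCF factors, fell from 8347 ± 659 to 2975 ± 132 normalized counts (-1.49 ± 0.07, DESeq2 q = 5.43e-103), BCL9, a co-activator of beta-catenin, fell (-0.93 ± 0.12, DESeq2 q = 1.8e-13), and so did the co-repressor CTBP1 (-0.55 ± 0.07, DESeq2 q = 5.77e-15). The genes that fell in this list therefore included both co-repressors and a co-activator.

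Of 15 genes of the planar polarity branch 6 fell and 3 rose, with VANGL2 (-1.34 ± 0.15, DESeq2 q = 1.66e-17), CELSR2 (-0.67 ± 0.08, DESeq2 q = 7.25e-17) and PTK7 (-0.69 ± 0.08, DESeq2 q = 8.46e-17) lower. Of 6 glypicans and sulfatases, which shape how Wnt ligands bind heparan sulfate, 3 fell and 1 rose: GPC1 (-0.67 ± 0.08, DESeq2 q = 1.7e-15), SULF1 (-1.61 ± 0.34, DESeq2 q = 8.26e-06) and SULF2 (-0.67 ± 0.10, DESeq2 q = 3.13e-11), which overlapped between the groups and was not called without the pairing (q = 0.0529), were lower.

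Of 13 commonly used beta-catenin target genes 5 fell and 2 rose, and 6 of the 13 are also members, so this list does not stand apart from them. AXIN2, TCF7, LEF1 and DKK1 fell, with MYC (-0.22 ± 0.09, DESeq2 q = 0.0256), while NKD1 and CCND1 (0.80 ± 0.29, DESeq2 q = 0.0143) rose. MYC overlapped between the groups. CCND1 spread from 3681 to 8901 normalized counts over the control libraries, against 9338 to 12398 over the OGTi libraries. Target genes of the pathway thus moved in both directions. The members of this list are also regulated by other pathways, and beta-catenin activity itself was not measured.

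**Figure D4:**
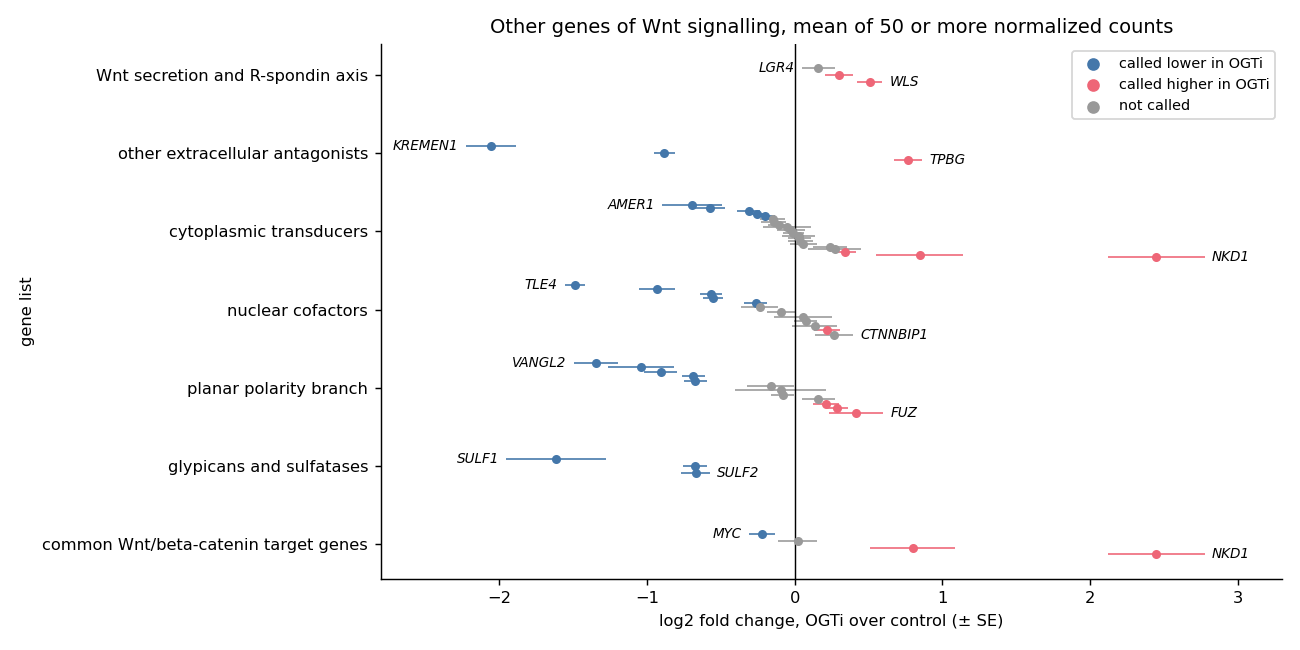
Log2 fold change, OGTi over control (horizontal axis, bars of 1 standard error from DESeq2), of other Wnt signalling genes with a mean of 50 or more normalized counts, by list, members left out. The lowest and highest gene of each list is named, from KREMEN1 at -2.06 to NKD1 at 2.45, which is in 2 lists.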

How the data were processed

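RNA was taken from 8 LX-2 cultures (4 control, 4 OGTi, biological replicates per the labels) and sequenced as stranded oligo-dT libraries. The deposited values were expected counts per gene that the authors estimated with RSEM 1.3.1 after aligning to hg38 with Bowtie2 2.3.5.1, using strand. A table of the authors' own comparison (fold changes and p-values) was not used. Expected counts were rounded, genes with under 10 counts in total removed, and DESeq2 1.42.0 (R 4.3.3) fitted with replicate number as a block beside treatment, as the study did, with size factors by median of ratios, unshrunken fold changes and calls at q ≤ 0.05. A gene with too few counts has no q (independent filtering). The fit was tried on simulated counts with known changes, drawn without a replicate effect, so they did not test the pairing. Same-numbered deviations from the group means correlated at 0.379, 0.303, 0.138 and 0.269, all over 0.1, but control 3 correlated more with OGTi 4 (0.272) and control 4 with OGTi 3 at 0.202, so the numbers did not separate replicates 3 and 4. Level per length used total counts and the union of exons in GENCODE release 44, which is not the release the study names, and in which 15800 of 16796 listed symbols and all 37 members matched. Alternatives were edgeR 4.0.16, no block, TMM factors, other filters and each replicate left out. By-library values are given for called members with a mean of 50 or more normalized counts and a log2 change of 0.5 or more in size, and for the highest member per length of each role; from each other list the 3 called genes with the largest statistic are named (MYC and CCND1 after their values were seen). Members and lists were chosen with earlier results of these data known.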

Additional observations from a re-analysis of the deposited data

Results flagged for a closer look

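In 56 groups of 4 libraries (28 members with a mean of 50 or more normalized counts), 2 held a library that stood far from the other 3, with a gap to the nearest of them, as a share of the group's range, past Dixon's critical value. Chance flags about 1 in 20 groups, or 2.8 of 56. For SFRP1, OGTi replicate 1 had 15848 normalized counts against 10841 to 10932 in the other 3 libraries, and without replicate 1 the change in SFRP1 was not called (log2 fold change 0.14, DESeq2 q = 0.128). For TCF7L1, control replicate 1 had 3411 normalized counts against 2422 to 2546, and the fall in TCF7L1 was called in every fit that left out a replicate.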

How the results depend on the processing

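Under 11 alternatives all 19 called members kept their direction, and 16 were called in each of them, the exceptions being AXIN2, FZD7 and SFRP1 as given above. Members called lower numbered 12 to 13, and members called higher 4 to 6. With no replicate block 18 members were called, 13 lower and 5 higher, SFRP1 being the one lost.

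Reversals of sign occurred in uncalled members. With no replicate block the log2 fold change was -0.0013 for ROR1, 0.32 for WNT9B and -0.0092 for ZNRF3. In edgeR it was 0.19 for WNT9B with the replicate block, and 0.30 for WNT9B and -0.0075 for ZNRF3 with no block. With 1 replicate left out in turn the values ran from -0.19 to 0.10 for APC, -0.060 to 0.0060 for DKK3, -0.097 to 1.94 for RNF43, -0.11 to 0.052 for ROR1, -1.28 to 0.60 for WNT11, -1.15 to 0.31 for WNT2B, -0.21 to 0.059 for WNT7B, -1.04 to 0.69 for WNT9B and -0.076 to 0.15 for ZNRF3. The cause was not tested. The scaling of family totals by size factors was chosen after seeing the data: it gave 0.91 in place of 0.96 for the ratio of OGTi to control Frizzled totals and 0.79 in place of 0.85 for the co-receptors. With the longest transcript as gene length the ligand sum was 42.5 in control and 23.4 in OGTi libraries and the TCF/LEF sum 44.9 and 22.9, with ratios of 0.55 and 0.51. Depth limits the 9 members with a mean under 50 normalized counts, of which LEF1 was called.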
